A study of Arabidopsis thaliana with 12 samples.

Results

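This account describes gene expression in Arabidopsis thaliana root meristems after 2 h of DOF2.1 induction, set against a control taken at 1 h. Its members are 6 of the 12 libraries of the series, 3 labelled DEX2h and 3 labelled control1h, compared across all genes. Every library came from seedlings of the Col-0 background that carry a pRPS5A::DOF2.1-GR construct, grown for 5 days at 22 °C, with 300 root tips per sample. The DEX 2 h seedlings spent 2 h on medium with 10 µM dexamethasone (DEX), and the control seedlings received none and were taken at 1 h. The labels do not say whether the control seedlings were moved to fresh medium. The 2 groups therefore differ by 1 h of elapsed time as well as by DEX, and these cannot be told apart. A control at 2 h, or a line without the construct on DEX, was not analysed here.

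DOF proteins are plant transcription factors with one zinc finger that bind the short DNA core AAAG, and several of them promote cell division in the vascular tissue of the root. In the line used, DOF2.1 is expressed from the RPS5A promoter, known for its activity in dividing cells, and is fused to the hormone-binding domain of a glucocorticoid receptor. Such a fusion stays out of the nucleus until a glucocorticoid such as DEX binds it. The study's title names TRN2, a tetraspanin membrane protein also known as TET1, in vascular proliferation and the patterning of the ground tissue that surrounds the vascular cylinder.

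Of 28775 loci, 19733 had enough counts to be tested. Of these, 35%, or 6915 loci, were called at an adjusted p under 0.05 (Benjamini-Hochberg) in the quasi-likelihood test of edgeR. Higher after DEX for 2 h were 3261 loci (16.5%) and lower were 3654 (18.5%), and these shares are the background against which the counts in gene lists are read. Most changes were small. The median absolute log2 fold change of called genes was 0.44. A change of 2-fold or more was seen in 703 called genes (3.56% of those tested), of which 286 were higher and 417 lower. The normalized CPM (counts per 1000000, with TMM scaling) of the DEX 2 h and control libraries did not overlap for 6767 of the 6915 called genes. Among all 19733 loci tested, 10211 (51.7%) had no overlap, and a lack of overlap in a gene named below is read against this share. The test itself favours such loci among called genes. Library totals were 15341640 to 16286243 counts for DEX 2 h and 16167813 to 16826059 for the control. On the first principal component of the 6 libraries, with 59.4% of the variance, DEX 2 h lay between -34.7 and -27.1 and the control between 22.9 and 36.1, with control replicate 3 nearest to DEX. The share of counts from mitochondrial genes was 0.0678% to 0.0826% in DEX 2 h and 0.0526% to 0.0634% in control libraries.

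The direction of change moved with transcript length. The median transcript was 1285 bases long among higher genes, 2310 among lower genes and 1734 among all tested. When loci were sorted by transcript length into 5 equal bins, 32.6% were higher and 5.67% lower in the bin of the shortest transcripts, and 5.17% were higher and 39.8% lower in that of the longest. The log2 deviation from the mean of all libraries was larger in the shortest than in the longest bin by 0.059 to 0.17 in DEX 2 h libraries, and was smaller by 0.25 to 0.36 in control libraries. An alternative chosen after seeing the data added offsets for transcript length and GC content to the fit. These shares were then 13.2% and 12.5% for the shortest bin and 14.2% and 14.2% for the longest. Offsets for length level the bins by design, and would also remove a true change that follows length. The part of transcript length in any single change was not tested. With these offsets 5514 genes were called, 2695 higher and 2819 lower, and 4426 of the 6915 calls (64%) were shared. A small change in a long or short transcript is therefore given below with its value under the offsets wherever these end the call. Scaling by library totals alone gave 2621 higher and 4236 lower genes, so that 38.2% of calls were higher, against 47.2% under TMM. This scaling shifted the median log2 fold change of all loci by -0.05.

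**Figure D1:**
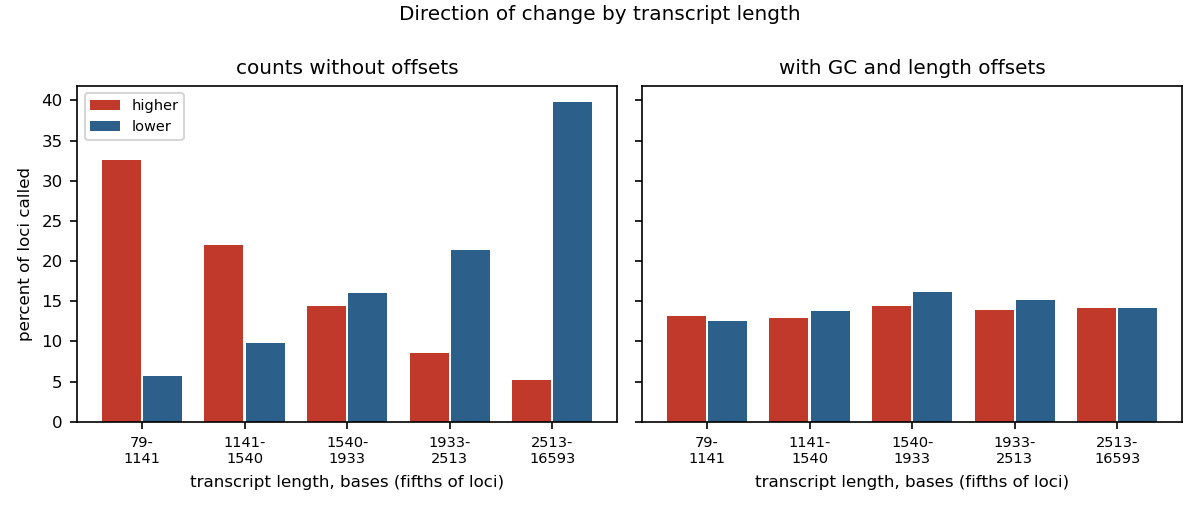
Percent of loci called higher (red) or lower (blue) after DEX for 2 h, in 5 equal bins of loci by annotated transcript length in bases, from the counts as deposited (left) and with the length and GC offsets (right). Without offsets the higher share is 32.6% in the shortest bin and the lower share 39.8% in the longest, and with offsets every share lies between 12.5% and 16.2%. Offsets for length level these bins by design.

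**Figure D2:**
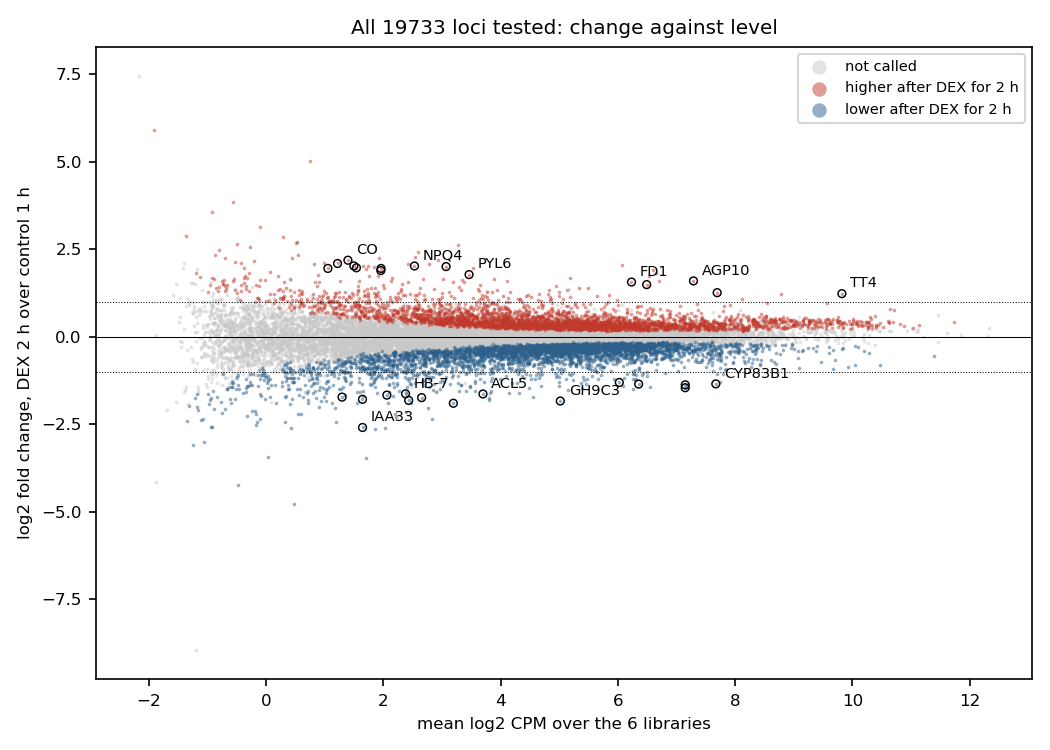
Log2 fold change (DEX 2 h over control 1 h) of each locus tested against its mean log2 CPM over the 6 libraries, with genes called higher in red and lower in blue. Dotted lines mark a 2-fold change and open circles the genes named for the largest changes, such as CO at 2.18 and IAA33 at -2.60.

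The genes described first had a symbol in the reference, whole deposited counts, a mean level of 1 or more in log2 CPM and no overlap between groups. Where a lack of overlap is stated for them, or for the abundant genes below, it follows from this choice. Some loci that fail one of these conditions changed more. Among the genes that met them the largest rise belonged to CO, a transcription factor that controls flowering by day length. It had 5.73, 5.46 and 4.82 CPM in DEX 2 h libraries, against 1.46, 1.12 and 0.915 CPM in control libraries. It rose by 2.18 ± 0.22 on the log2 scale (SE of the fit, adjusted p 2.75e-06 in edgeR). All 3 DEX libraries stood well above all 3 control libraries.

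NPQ4 and PSRP3/1 act in the chloroplast. NPQ4, the photosystem II subunit that disperses excess light energy, had 12.8, 11.4 and 10.1 CPM after DEX, against 2.34, 2.48 and 3.66 CPM in the control (log2 2.02 ± 0.17, edgeR adjusted p 6.22e-07). PSRP3/1, a plastid ribosomal protein, had 6.99, 6.12 and 9.51 CPM after DEX, against 1.58, 1.54 and 2.74 CPM in the control (log2 1.95 ± 0.22). Neither gene's groups overlapped.

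HSP17.6A and HSP17.4 are small heat shock proteins, chaperones that hold unfolding proteins in solution. HSP17.6A had 4.91, 6.97 and 5.15 CPM after DEX, against 0.936, 0.886 and 2.38 CPM in the control (log2 2.02 ± 0.45, edgeR adjusted p 0.00579). HSP17.4 had 14, 22.8 and 14.4 CPM after DEX, against 3.51, 3.13 and 6.16 CPM in the control (log2 2.00 ± 0.37, edgeR adjusted p 0.0031). In both genes replicate 2 was the highest of the DEX libraries and replicate 3 the highest of the control libraries, and the groups did not overlap.

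The other 5 genes with the largest rises were E13L3, HB30, MEE47, LPP2 and PYL6. PYL6, an abscisic acid receptor, had 27.8, 18.1 and 15.8 CPM after DEX, against 4.74, 5.67 and 7.68 CPM in the control (log2 1.77 ± 0.21, edgeR adjusted p 5.08e-05). DEX replicate 1 was the highest, and the lowest DEX library was still above every control library. LPP2, a phosphatase that acts on phosphatidic acid, rose by 1.89 on the log2 scale. HB30, a homeobox transcription factor, rose by 1.97, E13L3, a glucan endo-1,3-beta-glucosidase-like protein, by 2.09, and MEE47, annotated as a hypothetical protein, by 1.95.

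On the lower side, IAA33, a member of the Aux/IAA family of auxin response proteins, changed most among the genes chosen this way. It had 1.38, 1.12 and 1.12 CPM in DEX 2 h libraries, against 7.84, 8.63 and 5.61 CPM in control libraries (log2 -2.60 ± 0.22, edgeR adjusted p 5.04e-07). Every DEX library was far below the lowest control library.

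WRKY29, HB-7, NAC047 and AHL18, among the other large falls, encode DNA-binding proteins. WRKY29, known from defence signalling, had 6.92, 5.72 and 2.18 CPM after DEX, against 21.8, 20.3 and 13.7 CPM in the control (log2 -1.91 ± 0.31, edgeR adjusted p 0.00134). HB-7, a homeodomain factor induced by abscisic acid and drought, had 3.65, 2.37 and 2.64 CPM after DEX, against 9.13, 9.10 and 8.78 CPM in the control (log2 -1.64 ± 0.25). The 3 control libraries of HB-7 were nearly equal, and those of WRKY29 spread more, with no overlap between groups in either gene. NAC047 fell by 1.82 and AHL18, an AT-hook DNA-binding protein, by 1.67 on the log2 scale.

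The remaining large falls were in GH9C3, ACL5, SKOR, SHB1 and scpl18. GH9C3, a glycosyl hydrolase family 9 enzyme of the cell wall, had 19.8, 19.7 and 12.2 CPM after DEX, against 60.7, 65.5 and 59.3 CPM in the control (log2 -1.84 ± 0.24, edgeR adjusted p 0.000398). ACL5, the synthase of thermospermine, a polyamine that restrains xylem vessel differentiation, had 9.12, 5.85 and 7 CPM after DEX, against 22.1, 22.3 and 24.3 CPM in the control (log2 -1.64 ± 0.17, edgeR adjusted p 1.06e-05). The groups of both genes lay far apart. SKOR, a potassium channel of the root stele, had 5.04, 2.30 and 2.97 CPM after DEX, against 12.8, 10.9 and 11.1 CPM in the control (log2 -1.75 ± 0.44, edgeR adjusted p 0.0136). The SKOR call was lost without DEX 2 h replicate 2 or replicate 3, with 0.0532 as the highest adjusted p. SHB1, an EXS-domain protein, fell by 1.79 and scpl18, a carboxypeptidase-like protein, by 1.73.

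**Figure D3:**
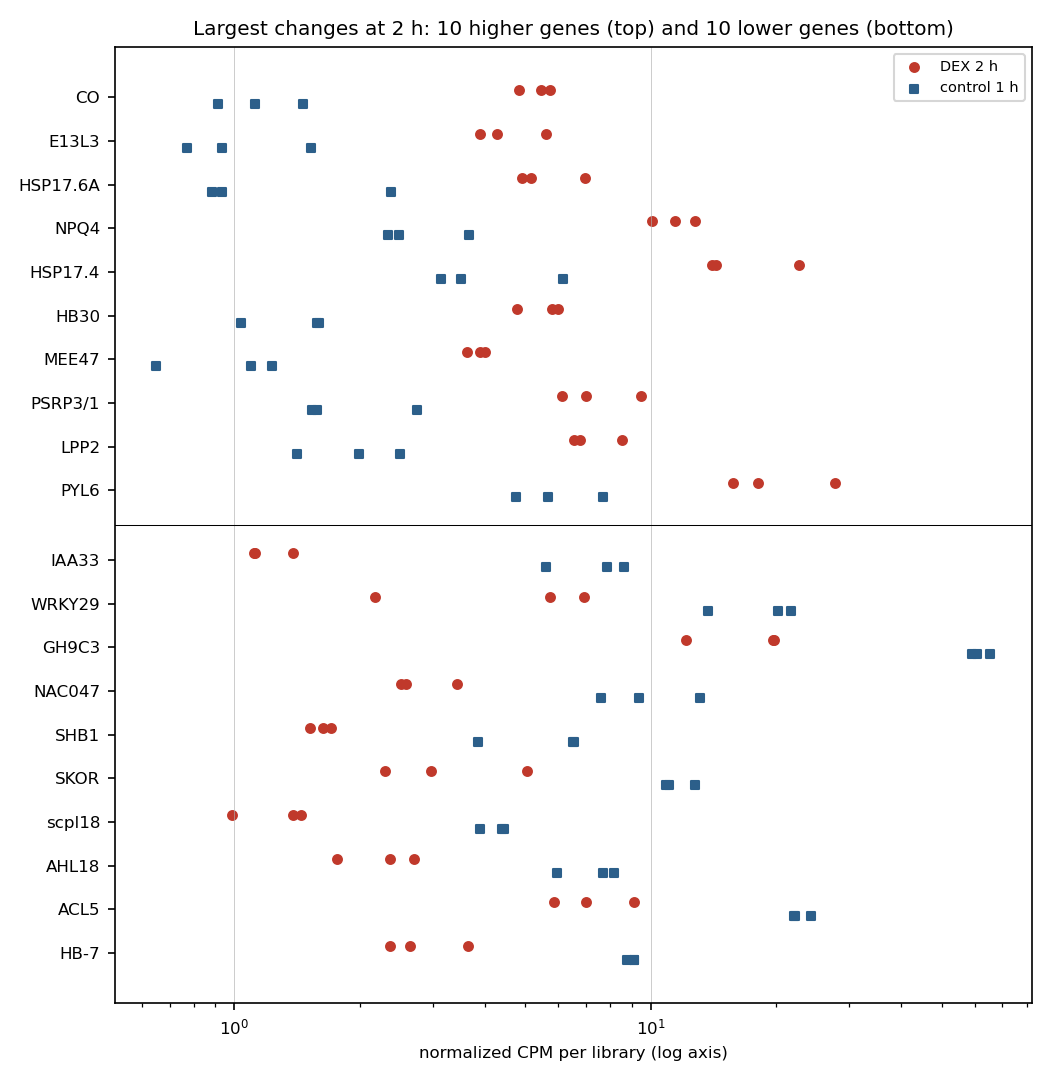
Normalized CPM of each library on a log axis for the 10 higher genes (top) and 10 lower genes (bottom) with the largest log2 fold changes among those with a symbol and whole counts, with DEX 2 h as red circles above control 1 h as blue squares. In every gene shown the 3 DEX libraries and the 3 control libraries do not overlap, which the choice of genes required.

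Among abundant genes chosen in the same way, those whose mean level was 6 or more in log2 CPM, the largest rises were in AGP10, FD1, TT5, CHIL and TT4. AGP10, an arabinogalactan protein of the cell surface, had 276, 280 and 261 CPM after DEX, against 75.6, 91.5 and 104 CPM in the control (log2 1.59 ± 0.17, edgeR adjusted p 5.11e-05). FD1, a ferredoxin that carries electrons from photosystem I, had 130, 131 and 125 CPM after DEX, against 39.6, 42.1 and 49.7 CPM in the control (log2 1.56 ± 0.12, edgeR adjusted p 4.21e-07). The DEX libraries of both genes were close together and far above the control.

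TT4, TT5 and CHIL belong to flavonoid synthesis. TT4, the chalcone synthase that makes the first flavonoid intermediate, had 1450, 1440 and 1281 CPM after DEX, against 524, 535 and 722 CPM in the control (log2 1.23 ± 0.13, edgeR adjusted p 1.5e-05). TT5, the chalcone isomerase of the next step, rose by 1.49 and the isomerase-like CHIL by 1.25 on the log2 scale, and the control library with the highest value was replicate 3 in all 3 genes. In a list of 14 flavonoid genes drawn up after these values were seen, 10 were tested, 6 were higher and 0 lower, and the median log2 fold change was 0.93. Of all loci tested 16.5% were higher. TT4, TT5 and CHIL, already chosen for their rise, are 3 of the 6, so this count and median are a description only. The other 3 were F3H, which hydroxylates flavanones (log2 0.95), FLS1, the flavonol synthase (log2 1.06), and TT7, the flavonoid 3′-hydroxylase (log2 0.91). The TT7 call was lost without replicate 1 or 2 of either group and with the replicate block. MYB12, a regulator of this pathway, had a log2 fold change of 0.41 and was not called (edgeR adjusted p 0.449).

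The largest falls among abundant genes were in GH9C2, NSH3, PRN, CYP83B1 and CYP79B2. GH9C2, a relative of GH9C3, had 92.3, 84.7 and 79.3 CPM after DEX, against 241, 246 and 219 CPM in the control (log2 -1.46 ± 0.09, edgeR adjusted p 5.27e-08). CYP83B1, an enzyme of indole glucosinolate synthesis, had 127, 139 and 116 CPM after DEX, against 324, 349 and 304 CPM in the control (log2 -1.35 ± 0.12, edgeR adjusted p 2.66e-06). Each DEX library was far below the lowest control library in both genes.

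CYP79B2, which converts tryptophan to indole-3-acetaldoxime, the substrate of CYP83B1, fell by 1.31 on the log2 scale. NSH3, a nucleoside hydrolase, fell by 1.38 and the pirin PRN by 1.36. In a list of 12 indole glucosinolate genes, also drawn up after the values were seen, 12 were tested, 1 was higher and 7 were lower, with a median log2 fold change of -0.38. Of all loci tested 18.5% were lower. CYP83B1 and CYP79B2, already chosen for their falls, are among the 7, so this count and median are a description only. The lower genes included CYP79B3 (log2 -0.68), GGP1 (log2 -0.62) and SOT16, a sulfotransferase of the last step of core synthesis (log2 -0.47). The higher one was MYB51, a regulator of the pathway (log2 0.61), a call lost without DEX 2 h replicate 2 or control replicate 1. Of the other MYB genes listed, MYB122 was among the lower ones (log2 -0.93, edgeR adjusted p 0.00206). MYB34 was not called (log2 -0.18).

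Several loci named so far overlap a locus on the opposite strand, namely CO, HSP17.4, PSRP3/1, WRKY29, SKOR, ACL5, AGP10, TT4 and F3H, and FD1 overlaps one on its own strand. The deposited counts of F3H were also not whole. The strand setting of the counting is not given in the sources used here, so reads of overlapping loci may be joined in these values.

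The genes closest to the study's question, 14 regulators of vascular and ground tissue, were 1 higher, 8 lower and 5 not called, with a median log2 fold change of -0.33 against -0.0065 for all loci tested. TRN2 was the one that rose. With the offsets 2 were higher and 6 lower, and without DEX 2 h replicate 3 the lower ones numbered 5. It had 32.7, 37.0 and 38.9 CPM in DEX 2 h libraries, against 22.5, 23.3 and 23.6 CPM in control libraries (log2 0.65 ± 0.10, edgeR adjusted p 0.000204). The control libraries were tightly grouped and all 3 DEX libraries lay above them. Under the offsets its log2 fold change was 0.56 and the call remained. TRN2 overlaps a locus on the opposite strand.

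Tetraspanins other than TRN2 moved in both directions. TET6 had 71.2, 66.9 and 65.4 CPM after DEX, against 40.4, 45.6 and 46.5 CPM in the control (log2 0.62 ± 0.08, edgeR adjusted p 4.09e-05). TET3 had 42.0, 44.4 and 40.3 CPM after DEX, against 56.4, 50.8 and 51.5 CPM in the control (log2 -0.33 ± 0.09, edgeR adjusted p 0.00808). In neither gene did the groups overlap, and both overlap loci on the opposite strand. Of 9 family members 8 were tested, 2 were higher, 1 was lower and the median log2 fold change was -0.022, so that the share called, 37.5%, was near the background. TET8 and TET9, at 0.30 and -0.52, were not called.

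The promoters of these 3 genes are shown because DOF proteins bind the core AAAG. Each runs from 250 bases before to 50 bases after the annotated start in the RefSeq assembly TAIR10.1, written 5′ to 3′ on the gene's strand, with AAAG and its reverse complement CTTT in capitals. The TRN2 window is chr5:18950593-18950892 on the + strand, that of TET6 is chr3:3853817-3854116 on the - strand, and that of TET3 is chr3:16735902-16736201 on the - strand.
TRN2: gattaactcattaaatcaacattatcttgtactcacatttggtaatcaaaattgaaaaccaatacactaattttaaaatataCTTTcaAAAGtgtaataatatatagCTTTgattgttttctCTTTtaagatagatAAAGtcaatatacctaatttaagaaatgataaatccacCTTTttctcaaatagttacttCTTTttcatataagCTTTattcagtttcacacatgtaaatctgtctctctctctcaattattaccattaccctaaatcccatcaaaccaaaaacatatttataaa
TET6: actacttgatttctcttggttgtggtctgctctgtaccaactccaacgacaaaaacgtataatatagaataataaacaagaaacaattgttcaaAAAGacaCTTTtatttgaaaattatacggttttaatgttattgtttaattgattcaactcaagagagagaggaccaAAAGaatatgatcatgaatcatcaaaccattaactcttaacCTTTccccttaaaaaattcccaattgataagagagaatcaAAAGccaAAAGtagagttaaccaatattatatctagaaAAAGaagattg
TET3: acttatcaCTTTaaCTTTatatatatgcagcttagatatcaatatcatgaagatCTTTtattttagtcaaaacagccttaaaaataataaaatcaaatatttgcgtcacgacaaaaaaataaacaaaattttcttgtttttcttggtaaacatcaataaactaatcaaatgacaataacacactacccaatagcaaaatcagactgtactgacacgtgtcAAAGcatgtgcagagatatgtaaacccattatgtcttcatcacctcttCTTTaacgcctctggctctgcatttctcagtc
The core occurs 8 times in the TRN2 window, 7 times in that of TET6 and 5 times in that of TET3, counting both strands. It occurs in almost every promoter: 99.3% of windows of higher genes, 99% of lower genes and 99.1% of all 19635 windows of tested genes held it, with a mean of 5.22, 4.92 and 5.05 copies. The longer TAAAG, which contains AAAG, was found on either strand in 67.8% of windows of higher genes, 64.3% of lower genes and 65.7% of all. AAATATCT, the evening element of clock-controlled promoters, was found in 6.03%, 5.69% and 5.73%. A match of letters is a description of the window and not a binding site.

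The 8 regulators that fell included DOF2.1 itself. DOF2.1 (AT2G28510), whose counts join the endogenous gene and the construct, had 69.3, 63.6 and 59.5 CPM after DEX, against 88.3, 88.3 and 79.4 CPM in the control (log2 -0.41 ± 0.10, edgeR adjusted p 0.00498). RNA counts do not show nuclear entry of the protein. Among its relatives, TMO6 had 13.3, 16.1 and 16.2 CPM after DEX, against 20, 22 and 25.2 CPM in the control (log2 -0.56 ± 0.11, edgeR adjusted p 0.00136). The DOF gene AT5G02460 changed by -0.89 and HCA2, a DOF factor that promotes vascular cell division, by -0.89. The AT5G02460 call was lost without DEX 2 h replicate 3 or control replicate 1. The HCA2 call was lost without any library but control replicate 1, in DESeq2 and with the offsets (log2 -0.89), with 0.157 as the highest adjusted p. DOF2.4 was not called (log2 -0.26, edgeR adjusted p 0.438).

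LOG3 and LOG4, enzymes that release active cytokinin and act in the vascular initials, had the largest falls of the list. LOG3 had 0.441, 0.658 and 0.330 CPM after DEX, against 3.16, 2.84 and 1.89 CPM in the control (log2 -2.45 ± 0.39, edgeR adjusted p 0.000236). LOG4 had 0.944, 0.526 and 1.12 CPM after DEX, against 2.69, 2.72 and 2.50 CPM in the control (log2 -1.6 ± 0.28, edgeR adjusted p 0.000531). Both rest on few counts, yet no library of one group reached the other, and LOG4 overlaps a locus on the opposite strand. LHW and TMO5, known activators of LOG4, had log2 fold changes of 0.11 and -0.24, and AT1G68810, a basic helix-loop-helix gene, of -0.16. None of these 3 was called. LHW was called under the offsets (log2 0.25).

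SCR and SHR, which specify the endodermis and divide the ground tissue initials, were slightly lower. SCR had 52.6, 47.0 and 52.2 CPM after DEX, against 68.7, 62.0 and 66.2 CPM in the control (log2 -0.38 ± 0.08, edgeR adjusted p 0.00235). SHR had 38.4, 35.6 and 35.5 CPM after DEX, against 49.3, 43.7 and 40.2 CPM in the control (log2 -0.28 ± 0.09, edgeR adjusted p 0.0255). The groups did not overlap in either gene, but the SHR call was lost without DEX 2 h replicate 2 or 3, without control replicate 1 or 2, and with the offsets (log2 -0.20). TRN1, which acts with TRN2 in leaf patterning, was not called (log2 -0.18, edgeR adjusted p 0.156).

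**Figure D4:**
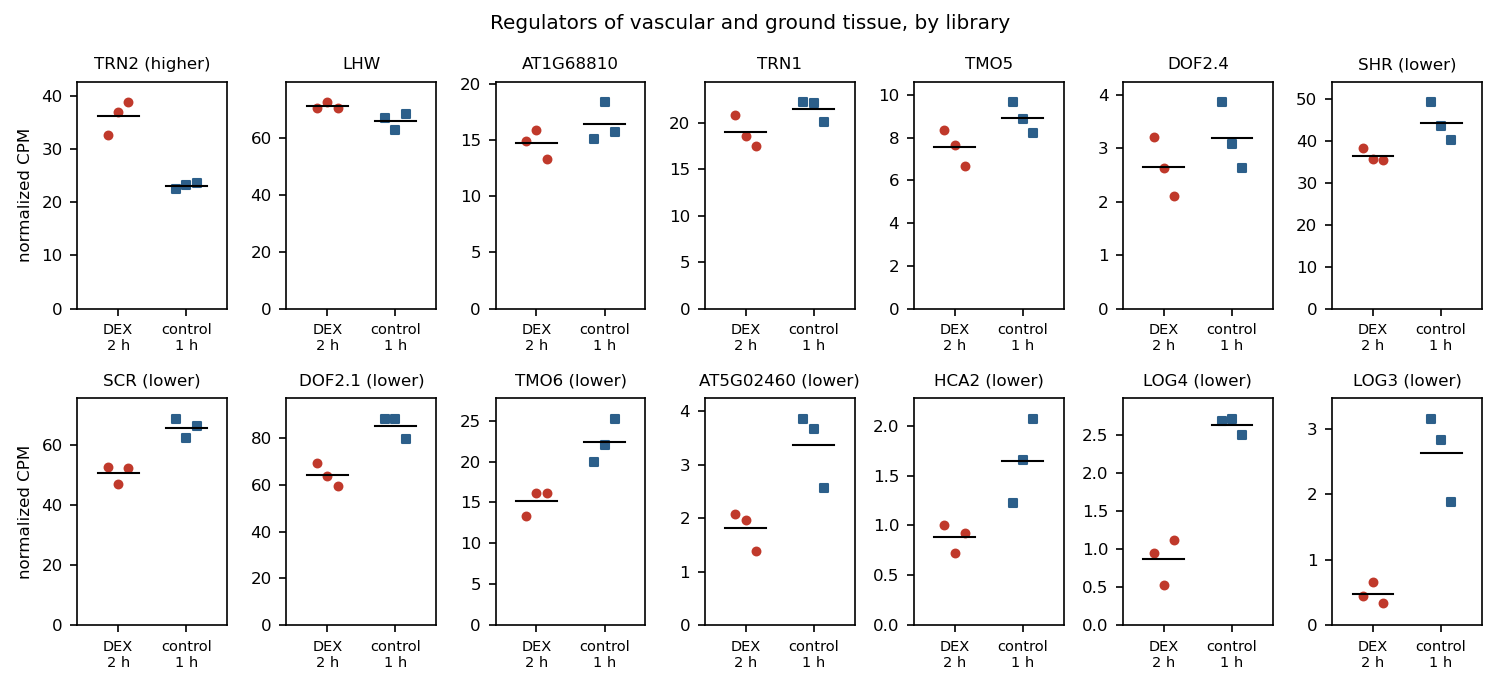
Normalized CPM per library (points) and group mean (bar) of the 14 regulators of vascular and ground tissue, DEX 2 h in red and control 1 h in blue, ordered from the highest to the lowest log2 fold change. TRN2 is above the control in all 3 DEX libraries, and the 8 genes marked lower, such as LOG3 and SCR, are below it in all 3.

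A group of DOF genes known as cycling DOF factors, repressors of CO, was listed after their values were seen. Of 8 genes, 6 were higher and 0 lower, with a median log2 fold change of 1.2. Of all loci tested 16.5% were higher. CO, which is no DOF gene and was already described for its rise, is one of the 6, so this count and median are a description only. CDF2 had 22.8, 23.1 and 26.7 CPM after DEX, against 10.6, 10.4 and 11.7 CPM in the control (log2 1.15 ± 0.11, edgeR adjusted p 2.38e-06). AT1G29160, annotated as a DOF-type zinc finger gene, had 27.9, 28.3 and 26.8 CPM after DEX, against 12.3, 12.5 and 9.63 CPM in the control (log2 1.27 ± 0.10, edgeR adjusted p 3.09e-07). The DEX level was roughly uniform over libraries in both genes. CDF1 rose by 1.05, and the DOF-type loci AT2G34140 and AT1G26790 rose by 1.34 and 2.68, while CDF3 was not called (log2 0.66, edgeR adjusted p 0.0643). AT1G69570, another DOF-type locus, was not called either and lay the other way (log2 -1.02, edgeR adjusted p 0.152).

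Of 21 genes of cytokinin synthesis, activation and breakdown 19 were tested, 3 were higher and 8 lower (57.9% called), and the median log2 fold change was -0.37. Leaving out any 1 library gave 2 higher and 6 to 8 lower genes. Besides LOG3 and LOG4, the activating enzymes LOG7, LOG1 and LOG2 were lower. LOG7 had 34.6, 39.8 and 29.2 CPM after DEX, against 66.4, 70.2 and 69.5 CPM in the control (log2 -0.99 ± 0.11, edgeR adjusted p 1.26e-05). LOG1 changed by -1.40 and LOG2 by -1.19, with the LOG2 call lost without DEX 2 h replicate 1 or control replicate 2.

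The cytokinin oxidases, which break the hormone down, went both ways. CKX7 had 5.98, 6.18 and 5.48 CPM after DEX, against 1.58, 1.71 and 2.01 CPM in the control (log2 1.73 ± 0.20, edgeR adjusted p 1.51e-05). CKX6 rose by 0.83, and CKX5 and CKX1 fell by 0.93 and 1.37 on the log2 scale. The deposited counts of CKX5 and CKX6 were not whole. Type-A response regulators, whose transcription follows cytokinin signalling, were 0 higher and 3 lower of 9 tested, with a median of 0.058. The share called, 33.3%, was near the 35% of all loci tested, and up to 2 were higher when 1 library was left out. The 3 lower genes were ARR15 (log2 -1.11), ARR7 (log2 -0.89) and ARR5 (log2 -0.79). The ARR15 call was lost without DEX 2 h replicate 1, the ARR7 call without control replicate 3, and the ARR5 call without either of these or DEX 2 h replicate 2. The lower genes of this list numbered 1 without DEX 2 h replicate 1 or control replicate 3. ARR3 and ARR17, at 0.56 and 0.73, were not called.

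EIR1, the efflux carrier PIN2 of the epidermis and cortex, had 163, 165 and 170 CPM after DEX, against 318, 316 and 315 CPM in the control (log2 -0.93 ± 0.07, edgeR adjusted p 7.95e-08). The influx carrier AUX1 had 98.2, 104 and 101 CPM after DEX, against 157, 161 and 153 CPM in the control (log2 -0.63 ± 0.07, edgeR adjusted p 1.04e-05). Replicates of both genes differed by little, and both calls remained under the offsets. In all, 4 of 10 tested auxin transporters were lower, with a median log2 fold change of -0.19.

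Auxin response genes were 1 higher and 9 lower of 30 tested, with a median of -0.22. The share called, 33.3%, was near the 35% of all loci tested. The lower ones numbered 4 without DEX 2 h replicate 2 and 5 without replicate 3, and 4 were higher with the 6 libraries alone. GH3.1, an enzyme that conjugates auxin to amino acids, had 4.47, 4.21 and 4.75 CPM after DEX, against 12.3, 9.63 and 7.87 CPM in the control (log2 -1.15 ± 0.16, edgeR adjusted p 8.08e-05). Its relatives GH3.6, GH3.5 and GH3.17 fell by 0.85, 0.68 and 0.54. The higher one, IAA2 (log2 0.22, edgeR adjusted p 0.0467), lost its call under 10 of the alternatives, among them every fit that left out a library other than control replicate 1 and the fit with the offsets (log2 0.07), and IAA1, IAA16 and IAA17 were not called.

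Markers of root cell types served to check the labelled tissue and to show where transcripts changed. Every marker list of root cells had counts in all 6 libraries, and in bulk samples fewer cells of a type and less RNA per cell cannot be told apart. All 5 root cap markers were lower, with a median log2 fold change of -0.49 and a summed level of 49.1 to 58.6 CPM after DEX, against 71.4 to 80.5 CPM in the control. They comprised the cap regulators SMB (log2 -0.37), FEZ (log2 -0.79), BRN1 (log2 -0.41, a call lost without control replicate 2) and BRN2 (log2 -0.49) and the receptor kinase CR4, also named ACR4 (log2 -0.78). CR4 had 4.97, 6.05 and 6.60 CPM after DEX, against 10.7, 9.69 and 10.0 CPM in the control.

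In the stem cell niche 0 of 5 markers were higher and 3 were lower. WOX5, the transcription factor that marks the quiescent centre, had 2.45, 1.78 and 1.12 CPM after DEX, against 5.62, 4.85 and 5.49 CPM in the control (log2 -1.57 ± 0.24, edgeR adjusted p 0.00016). BBM, a factor that maintains the meristem, had 6.48, 5.2 and 6.67 CPM after DEX, against 17.9, 12.7 and 15.1 CPM in the control (log2 -1.31 ± 0.15, edgeR adjusted p 1.01e-05). The groups were clearly apart in both. The other lower marker was PLT1 (log2 -0.24, edgeR adjusted p 0.0325). The PLT1 call was lost with the offsets (log2 -0.13), in DESeq2, without DEX 2 h replicate 2 or 3 and without control replicate 1 or 3. With the offsets, and in DESeq2, the lower markers numbered 2. PLT2 and PLT3 had log2 fold changes of -0.18 and -0.19 and were not called.

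Of 13 epidermal markers 0 were higher and 5 lower, with a summed level of 246.9 to 276.5 CPM after DEX, against 333.8 to 363 CPM in the control. MYB66, also named WER, which specifies non-hair cells, had 9.75, 9.67 and 10.5 CPM after DEX, against 33.8, 30.1 and 28.5 CPM in the control (log2 -1.63 ± 0.11, edgeR adjusted p 5.27e-08). EGL3, its basic helix-loop-helix partner, had 13.2, 13.6 and 13.8 CPM after DEX, against 30.7, 25.9 and 29.0 CPM in the control (log2 -1.08 ± 0.10, edgeR adjusted p 2.2e-06). The values of each group were close together. GL3 fell by 1.05 and RHD6, which starts root hair growth, by 1.2 on the log2 scale, while GL2 and the expansins EXPA7 and EXPA18, at -0.29, 0.05 and -0.02, were not called.

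Ground tissue markers were 2 higher and 5 lower of 16, with a median of -0.15, and 3 higher and 8 lower with the offsets. MYB36, which drives endodermal differentiation, had 20.3, 18.1 and 22.6 CPM after DEX, against 11.3, 14.8 and 13.3 CPM in the control (log2 0.63 ± 0.12, edgeR adjusted p 0.000778). CYCD6;1, the cyclin of the ground tissue initial's division, had 1.76, 1.45 and 1.98 CPM after DEX, against 1.17, 0.768 and 0.366 CPM in the control (log2 1.16 ± 0.34, edgeR adjusted p 0.0143). No library of one group reached the other in either gene, though the CYCD6;1 call was lost without replicate 3 of either group. MGP, a target of SHR, fell by 0.45, and GSO1, the receptor of Casparian strip sealing, by 0.70. CASP5 fell by 0.93, while CASP1, CASP2 and CASP4 were between -0.32 and -0.15 and not called.

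Xylem markers were 0 higher and 9 lower of 20, with a median of -0.32 and a summed level of 382 to 424.4 CPM after DEX, against 507.8 to 558.6 CPM in the control. Besides ACL5, the lower genes included the secondary wall cellulose synthases CESA4 (log2 -0.78), IRX3 (CESA7, log2 -0.91) and IRX1 (CESA8, log2 -0.94). IRX3 had 23.9, 23.0 and 20.9 CPM after DEX, against 39.0, 46.8 and 41.3 CPM in the control (edgeR adjusted p 0.000151). NAC101, the vessel regulator VND6, changed by -2.59 ± 0.61 on 0.252, 0.132 and 0.0660 CPM after DEX, against 1.05, 1.24 and 0.549 CPM in the control. The other VND genes had log2 fold changes from -0.67 to 0.42 and none was called.

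Phloem markers were 1 higher and 5 lower of 12, and 2 were higher and 2 lower under the offsets. SUC2, the companion cell sucrose carrier, had 24.2, 19.7 and 24.2 CPM after DEX, against 40.7, 47.1 and 45.2 CPM in the control (log2 -0.97 ± 0.14, edgeR adjusted p 0.000269). The higher gene, OPS, a regulator of protophloem (log2 0.28, edgeR adjusted p 0.0368), lost its call without DEX 2 h replicate 1 or 3 and without control replicate 2 or 3. The number of lower phloem markers was 1 without DEX 2 h replicate 3 and 2 to 4 without any other library. Of 3 cambium markers PXY was lower (log2 -0.43), a call lost with the offsets (log2 -0.18) and without any library but control replicate 1, and WOX4 was not called (log2 0.98, edgeR adjusted p 0.153).

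Transcripts of the photosystems and Rubisco, which mark green tissue, were 7 higher and 0 lower of 12 tested, with a median log2 fold change of 0.46. Their summed level was 115.9 to 128.6 CPM after DEX, against 70.5 to 92.6 CPM in the control, and 1 of the 18 members, RBCS2B, had no counts in any of the 6 libraries. PSBR had 29.5, 27.8 and 28.5 CPM after DEX, against 13.3, 15.9 and 16.9 CPM in the control (log2 0.90 ± 0.11, edgeR adjusted p 2.97e-05). PSBP-1, of the oxygen-evolving complex, rose by 0.94, and the antenna proteins LHCA3 and LHCA4 by 0.62 and 0.67, while RBCS1A and LHCB1.3, at 0.41 and 0.12, were not called. The part of green tissue in the rise of NPQ4 and FD1 was not tested. Light and greening regulators were 5 higher and 0 lower of 9 tested. Apart from TT4 these were PORB (log2 0.94) and PORC (log2 1.5) of chlorophyll synthesis, the magnesium chelatase subunit GUN5, also named CHLH (log2 0.52), and the regulator HY5 (log2 0.34). The calls of PORC and HY5 were lost without DEX 2 h replicate 1 or 2 and without control replicate 2 or 3, and that of GUN5 without DEX 2 h replicate 1 or control replicate 2 or 3. PORB, at 2.9, 1.84 and 2.38 CPM after DEX and 1.23, 1.18 and 1.28 CPM in the control, overlaps AT4G27450 on the opposite strand, which was itself higher (log2 0.99), so its reads may be joined with those of that locus. The HY5 call was also lost with the offsets (log2 0.21). Higher members of this list numbered 2 without DEX 2 h replicate 1 or control replicate 2 or 3, and 3 without DEX 2 h replicate 2.

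Of 24 cytosolic heat shock genes 11 were higher and 2 lower (54.2% called), with a median log2 fold change of 0.43. Hsp70-2 had 195, 186 and 189 CPM after DEX, against 44.1, 50.2 and 68.4 CPM in the control (log2 1.81 ± 0.20, edgeR adjusted p 0.000142), on counts that were not whole. AT1G53540, a small heat shock protein of the HSP20 family, had 4.28, 6.58 and 4.36 CPM after DEX, against 1.46, 1.6 and 1.95 CPM in the control (log2 1.6 ± 0.27, edgeR adjusted p 0.000392). Control replicate 3 was the highest control library in both, still below every DEX library. HSP70 rose by 0.88, and the regulator HSFA2 and the chaperone HSP101, at 0.33 and 0.18, were not called. The lower members HSF4 and BAG6 (log2 -0.28 and -0.35) lost their calls when libraries were left out, HSF4 for each but DEX 2 h replicate 2 and BAG6 for DEX 2 h replicate 3 and control replicate 1, and BAG6 also with the offsets (log2 -0.09). Higher members numbered 5 without control replicate 1 and 6 without control replicate 2. Of 16 tested genes of the unfolded protein response 1, SDF2 (log2 0.27, a call lost without DEX 2 h replicate 3 or control replicate 1 or 2), was higher and 0 were lower. With the offsets 3 were higher, and with the 6 libraries alone 4 were higher and 2 lower. The chaperones BIP1 and BIP2, at 0.15 and 0.05, were not called.

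Genes of the core response to low oxygen were 11 higher and 2 lower of 19 tested (68.4% called), with a median log2 fold change of 0.43. Leaving out any 1 library gave 8 or 9 higher genes, and the offsets and library totals each gave 9. AT4G33070, annotated as a pyruvate decarboxylase, the first enzyme of ethanol fermentation, had 21.3, 13.1 and 18.9 CPM after DEX, against 5.44, 6.32 and 5.49 CPM in the control (log2 1.63 ± 0.15, edgeR adjusted p 1.44e-06). AT5G15120, annotated as a 2-aminoethanethiol dioxygenase, had 2.45, 2.04 and 3.5 CPM after DEX, against 0.585, 0.65 and 0.427 CPM in the control (log2 2.25 ± 0.36, edgeR adjusted p 0.000266). The groups were several-fold apart in both genes. ADH1, the alcohol dehydrogenase of the same route, averaged 8.27 ± 4.84 CPM after DEX and 2.60 ± 0.69 CPM in the control (SD, n = 3 each, log2 1.67, edgeR adjusted p 0.0488). The DEX libraries of ADH1 spread widely, and its call was lost under 10 of the alternatives, among them every fit that left out a library other than DEX 2 h replicate 2, and the fit with the offsets (log2 1.65). LBD41 rose by 0.91 and the ethylene receptor ETR2 by 0.82, SRO5 fell by 0.97 (without control replicate 2 its call was lost), and the sucrose synthases SUS1 and SUS4 were at -0.40 and -0.03, with the SUS1 call lost under the offsets (log2 -0.18). HRE1 and RBOHD, at 0.05 and -0.04, were not called.

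Stress hormone genes that were called were mostly lower, but jasmonate genes were called less often than all loci tested. Of 24 tested genes of jasmonate synthesis and signalling 1 was higher and 6 were lower. The share called was 29.2%, against 35% of all loci tested, and the median was 0.10, opposite in sign to the 6 lower genes. The higher gene was JAZ4 (log2 0.82), a call lost without DEX 2 h replicate 1 or control replicate 2 or 3. AOC2, an allene oxide cyclase of jasmonate synthesis, had 2.33, 4.14 and 2.51 CPM after DEX, against 9.66, 9.10 and 8.11 CPM in the control (log2 -1.58 ± 0.18, edgeR adjusted p 1.09e-05). JAR1, which conjugates jasmonate to isoleucine, had 50.9, 49.9 and 52.7 CPM after DEX, against 88.9, 77.7 and 77.1 CPM in the control (log2 -0.67 ± 0.09, edgeR adjusted p 6.42e-05). Neither gene's groups overlapped, and the counts of AOC2 were not whole. AT2G38240, an oxygenase gene, changed by -2.36 ± 0.33, and the repressor gene JAZ1, at 0.04, was not called.

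Abscisic acid and dehydration genes were 2 higher and 9 lower of 24 tested (45.8% called), with a median of -0.21, and the lower ones numbered 4 without DEX 2 h replicate 2. ERD10, an abundant dehydrin, had 409, 470 and 328 CPM after DEX, against 813, 750 and 697 CPM in the control (log2 -0.90 ± 0.11, edgeR adjusted p 2.29e-05), on counts that were not whole. ERD14, another dehydrin, fell by 0.34, and HAI1, a phosphatase of abscisic acid signalling, by 0.67. GolS1, a galactinol synthase, had 4.22, 4.80 and 4.29 CPM after DEX, against 1.99, 2.13 and 2.50 CPM in the control (log2 1.01 ± 0.19, edgeR adjusted p 0.000947). It was one of the 2 higher genes, beside KIN2 (log2 0.93), whose call was lost with the offsets (log2 0.64), without DEX 2 h replicate 2 or 3 and without control replicate 1 or 2. Touch and wounding genes were 4 higher and 2 lower of 19, near the background, but with a median of 0.41. The higher ones numbered 1 without DEX 2 h replicate 3 or control replicate 2, and 2 without control replicate 1. TCH4, a cell wall enzyme induced by touch, had 41.5, 35.0 and 50.6 CPM after DEX, against 14.5, 18.6 and 28.1 CPM in the control (log2 1.06 ± 0.27, edgeR adjusted p 0.0149). The TCH4 call was lost without DEX 2 h replicate 3 or control replicate 2. TCH2 rose by 0.29, and WRKY18, at 1.29, and WRKY40, at 0.90, were not called.

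Genes of growth changed by small amounts. Of 23 mitotic genes 5 were higher and 1 lower, with a median of 0.028 and a largest absolute log2 fold change of 0.38. The higher ones numbered 2 without control replicate 3, and 3 without DEX 2 h replicate 2 or 3 or control replicate 2. CDKB2;1, a mitotic kinase, had 52.7, 52.1 and 48.9 CPM after DEX, against 42.7, 42.9 and 40.4 CPM in the control (log2 0.29 ± 0.07, edgeR adjusted p 0.00329). PLE, a microtubule bundler of the division plane, rose by 0.27 (its call was lost without control replicate 3), and the cyclin CYCB1;1 by 0.33, a call lost without any one of the 6 libraries. HIK, a division kinesin with a transcript of 3474 bases, was lower by the counts (log2 -0.26) and at -0.03 under the offsets, which ended its call. The HIK call was also lost without DEX 2 h replicate 2 or 3 and without control replicate 1 or 2. Ribosome biogenesis genes were 6 higher and 0 lower of 21, with a median of 0.10, and the higher ones numbered 2 without DEX 2 h replicate 1 or control replicate 2, and 3 without DEX 2 h replicate 2. FIB2, the methyltransferase of the nucleolus, had 501, 506 and 450 CPM after DEX, against 388, 371 and 375 CPM in the control (log2 0.36 ± 0.09, edgeR adjusted p 0.00724), and NOP56 rose by 0.31 (its call was lost without replicate 2 of either group).

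DNA replication genes were 2 higher and 7 lower of 18 from the counts, and 2 higher and 1 lower under the offsets. The lower ones numbered 2 without DEX 2 h replicate 3 or control replicate 1, and 3 without DEX 2 h replicate 2. The higher genes were PCNA1, the sliding clamp (log2 0.38), and TSO2, a ribonucleotide reductase subunit (log2 0.32, a call lost without control replicate 2). CDT1A, which licenses origins, had 26.1, 26.6 and 25.8 CPM after DEX, against 37.6, 34.6 and 37.2 CPM in the control (log2 -0.48 ± 0.08, edgeR adjusted p 0.000229), and it was the one lower gene that kept its call under the offsets (log2 -0.40). ICU2, a DNA polymerase with a transcript of 5783 bases, was at -0.48 by the counts and at -0.08 under the offsets, and the helicase subunits MCM2, MCM3 and MCM4 were between -0.33 and -0.22 by the counts and between -0.14 and -0.07 under the offsets. Circadian clock genes were 2 higher and 2 lower of 19 (21.1% called). RVE8 (log2 0.42), PRR7 (log2 0.45), CCA1 (log2 -0.58) and FKF1 (log2 -0.58) each lost their call without some library, control replicate 2 among them in every case. The calls of CCA1 and FKF1 were also lost with the offsets (log2 -0.46 and -0.50), under which 4 clock genes were higher and 0 lower. With the replicate block 3 were higher and 5 lower, and without 1 library the lower ones numbered 0 (DEX 2 h replicate 3, control replicate 2) to 5 (DEX 2 h replicate 1, control replicate 3). The genes LHY, TOC1 and GI had log2 fold changes of -0.14, -0.13 and -0.40 and were not called.

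The caution on overlapping loci holds for other list members named with values. On the opposite strand these are AT1G69570, CKX1, CKX5, CKX6, TET9, CYCD6;1, CASP1, CASP5, PLT3, GL2, GL3, EXPA7, EXPA18, NAC101, CESA4, IRX3, IRX1, PSBR, PSBP-1, LHCA4, LHCB1.3, PORB, PORC, HSP101, ADH1, HRE1, SRO5, GolS1, TCH2, WRKY40, CDKB2;1, ICU2, NOP56 and FKF1, and on the same strand CKX5, PSBP-1, TSO2 and FIB2. Counts that were not whole also stand behind AT1G69570, LHW, RHD6, LHCB1.3, HSP101, HSF4, BIP1, BIP2, SRO5, KIN2, WRKY40, FIB2, PCNA1 and FKF1.

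**Figure D5:**
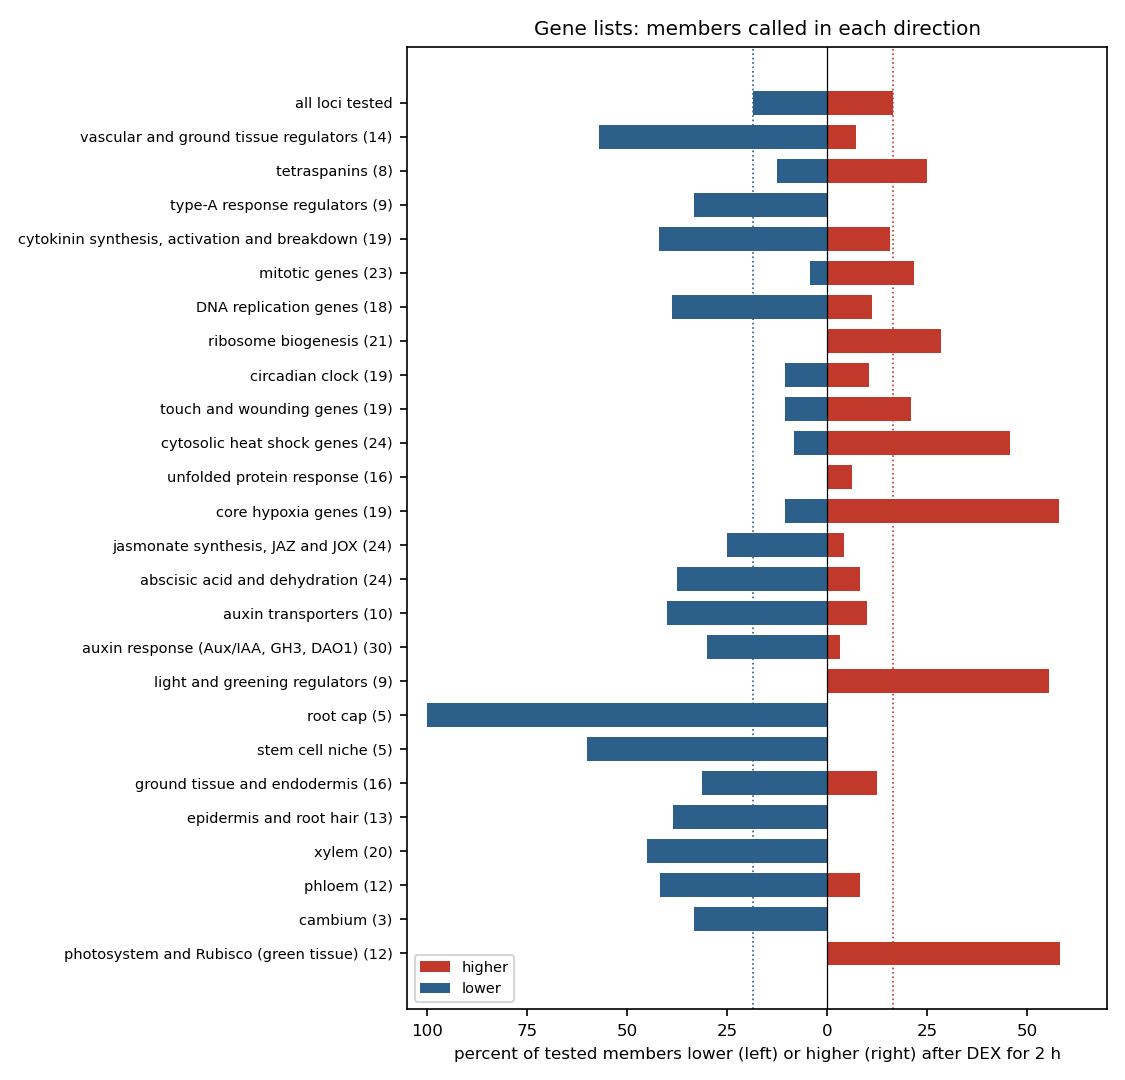
Percent of tested members called higher (red, right) or lower (blue, left) after DEX for 2 h in each gene list, with the number tested in brackets and dotted lines at the shares of all loci tested, 16.5% higher and 18.5% lower. Root cap and stem cell niche lists lie to the left, and hypoxia, heat shock, photosystem and greening lists to the right.

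The same line after 1 h on DEX, compared with the same control libraries, had 1898 genes called (9.62% of those tested). Because the 2 comparisons share their control libraries, their values are set side by side without a measure of likeness. TRN2 had a log2 fold change of 0.69 at 1 h and 0.65 at 2 h, MYB66 of -1.66 and -1.63, and CKX7 of 1.70 and 1.73. TT4 had 0.29 at 1 h and 1.23 at 2 h, Hsp70-2 had -0.05 and 1.81, and CYP83B1 had -0.09 and -1.35, in each case with the 1 h value before the 2 h value. The libraries of 2 h and of 1 h on DEX were also tested against each other directly, without the control, and 6168 genes were called (31.3% of those tested). The log2 deviation of the shortest bin of transcripts minus that of the longest was -0.28, -0.23 and 0.023 in libraries of 1 h on DEX. In those of 2 h on DEX it was 0.059 to 0.17, so these groups also differ in the shift with transcript length. The part of this shift in the 6168 calls was not tested.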

How the data were processed

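Poly(A) RNA of 300 root tips per sample was sequenced from stranded libraries, per the labels' protocols. The deposited values are estimated counts per locus, made by the authors with CASAVA, GSNAP and HTSeq on TAIR10 and analysed with edgeR, per the submitters' processing notes, which list the tools without a role or order. The annotation, the strand setting and the origin of counts that are not whole (2947 tested loci, tolerance 0.01) are not given in the sources used here. Nothing says that the replicates came from separate plantings, so p-values measure the spread between these samples, which may be technical.

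Counts were rounded to whole numbers and fitted with edgeR 4.0.16 in R 4.3.3, over all 12 libraries and 4 groups, with TMM scaling, a filter on low counts (minimum count 10, minimum total 15) and no covariate. CPM and log2 CPM (prior count 2) were computed from these counts, and counting error is smallest for abundant genes at 15341640 to 16826059 counts per library. Genes named are the 10 per direction with the largest change whose groups do not overlap, with whole counts and a symbol, at a mean level of 1 or more in log2 CPM, the 5 per direction at a mean of 6 or more, the 14 vascular and ground tissue regulators, and the 2 called members per direction with the lowest adjusted p in each of 25 gene lists. Other members named, and the lists of flavonoid, indole glucosinolate and cycling DOF genes, were chosen after their values were seen. The members and all lists were chosen with earlier results of these data known. Symbols, transcript lengths and promoters are from RefSeq TAIR10.1. Library totals, DESeq2 1.42.0 and its scaling, no filter, the 6 libraries alone, a replicate block, offsets and each library left out were tried as alternatives. The fit was tested on simulated data. Some single genes of the lists are not reported here.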

Additional observations from a re-analysis of the deposited data

Results flagged for a closer look

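Of the 30 genes chosen for the size of their change from the control, 22 differed between 2 h and 1 h on DEX in edgeR's test of that difference (adjusted p under 0.05). Both comparisons use the same 3 libraries of 2 h on DEX, by whose values the genes were chosen, so this count and the directions are a description and support nothing further. The log2 fold change from 1 h to 2 h on DEX was 1.2 for CO, 1.08 for NPQ4, 0.94 for HB30, 1.39 for PSRP3/1 and 1.22 for PYL6. The heat shock genes HSP17.6A and HSP17.4 had 2.92 and 3.11. HSP17.4 had 1.29, 2.42 and 2.23 CPM at 1 h on DEX, which is below the control at 3.13 to 6.16 CPM. That difference from the control was not called (log2 -1.11, edgeR adjusted p 0.217).

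Among lower genes it was -1.06 for IAA33, -2.33 for WRKY29, -2.66 for NAC047, -1.49 for SHB1, -0.94 for ACL5 and -2.77 for HB-7. HB-7 had 26.5, 18.6 and 14.1 CPM at 1 h on DEX and NAC047 had 25.2, 16.7 and 11.8 CPM, where the control libraries reached 9.13 and 13.1 CPM. Against the control, HB-7 was called higher at 1 h on DEX (log2 1.13, edgeR adjusted p 0.00239). NAC047 was not called there (log2 0.84, edgeR adjusted p 0.0811). In both genes every library of 2 h on DEX was below every control library and every library of 1 h on DEX.

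Among abundant genes the change from 1 h to 2 h on DEX was 1.23 for FD1, 1.25 for TT5, 1.2 for CHIL and 0.94 for TT4. It was -1.06 for GH9C2, -0.75 for NSH3, -1.31 for PRN, -1.26 for CYP83B1 and -1.22 for CYP79B2. The 2 h and 1 h libraries differ in DEX exposure and in elapsed time, which cannot be told apart. They also differ in the shift with transcript length, whose part in these changes was not tested.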

How the results depend on the processing

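The number of genes called, 6915, was 6920 with the scaling of DESeq2, 6857 with library totals, 6615 without a filter, 6340 in DESeq2, 8020 with the 6 libraries alone, 5514 with the length and GC offsets and 4082 at an adjusted p under 0.01. Leaving out 1 library gave 5130 to 6161 calls, and 628 to 817 genes at 2-fold or more, against 703. With the replicate block 7043 genes were called. Same-numbered samples deviated from their group means with correlations of 0.145, 0.0872 and 0.0867, not all above 0.1, so they were not taken as pairs. Each sample correlated best with its own number, a hint from the data and not from the design. ATHB-15, a xylem marker at -0.23, was at 0.0121 with the offsets (adjusted p 0.913 in edgeR). Of 200 called genes followed singly, 115 kept their call under all 13 alternatives, 82 lost it when some library was left out and 32 with the offsets, and none but ATHB-15 changed sign. With the offsets, lower DNA replication genes numbered 1 instead of 7 and lower phloem markers 2 instead of 5. Further list counts that moved by more than 1.5 times included the 5 lower clock genes with the replicate block, against 2, and the 8 lower ground tissue markers with the offsets, against 5. With the 6 libraries alone, higher auxin response genes numbered 4 and higher jasmonate genes 3, against 1 in each list. Higher clock genes numbered 4 in that fit and with the offsets, against 2. Unfolded protein response genes were 4 higher and 2 lower with the 6 libraries alone, against 1 and 0. Higher touch and wounding genes numbered 9 with the 6 libraries alone and 11 with the replicate block, instead of 4. The causes were not tested. Genes with a mean log2 CPM below 0 were called in 12.5% of cases and those above 8 in 59%, and the part of depth in this was not tested.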
